A study of Mus musculus with 10 samples.

Results

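The Notch pathway passes signals between touching cells, and 10 of its target and modulator genes are described here: the transcriptional repressors Hes1, Hes5, Hes6, Hey1, Hey2 and Heyl, the Fringe enzymes Lfng and Mfng, and the intracellular modulators Nrarp and Dtx1. The list was set by gene name, with no threshold on values, and each gene was read from the array probe that carries its symbol alone. It and the other gene lists below were chosen with earlier results of these data known, so their counts beside all probes are descriptive. The arrays held 1 such probe for each of the 10 genes, among 21615 probes with a single symbol that covered 18069 genes. The levels were measured on 10 CodeLink Mouse Whole Genome arrays, which are 1-colour oligonucleotide arrays, with 2 arrays in each of 5 groups. Dox(+) EBs were day 13 embryoid bodies of Ainv18 mouse ES cells, an engineered line in which doxycycline (Dox) switches on a bicistronic Pdx1-IRES-Ngn3 cassette, and they received 1 µg/ml Dox from day 4. Dox(−) EBs carried the same cassette and received no Dox, and both kinds of EBs were grown in serum-free medium with activin A and BMP4 in suspension. βTC6 cells are a mouse insulinoma line, that is 1 tumour-derived line of β-cell type grown in serum. The islets were whole islets whose age the labels do not give. The study calls them adult, while a column heading in its supplement sets e15.5 beside them. The E15.5 pancreas was the whole organ of mouse embryos at stage E15.5. Within each group the labels number 2 biological replicates without saying whether they came from separate cultures, animals or pools.

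When a ligand on a neighbouring cell binds a Notch receptor, the receptor is cut by ADAM proteases and γ-secretase, and its intracellular domain enters the nucleus, where it joins the DNA-binding protein RBPJ and switches on Hes and Hey genes. The Hes and Hey proteins in turn repress proneural bHLH genes. In the embryonic pancreas this circuit is known for keeping progenitors from turning on Neurog3 (Ngn3), the factor that starts endocrine differentiation, whereas cells with high Neurog3 display Notch ligands to their neighbours.

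Levels are given in units of the array median, so that 1 is the median probe of that array, and a spot that the scanner software marked as not above background is called at background. A fold given as at least is a nominal bound, defined with the processing below. For tests, values under 0.27 were set to 0.27, log2 values were fitted with limma over all 10 arrays, and p-values were adjusted over all probes tested, with a threshold of 0.05. A gene was tested if both arrays of at least 1 group were above background, and 9 of the 10 members passed. Hes1 and Lfng passed only through the E15.5 pancreas, so a difference from that group was fixed by the filter, and their values against it are given without a test. Hes5 did not pass. Because RNA was taken from whole cultures or tissues, more cells of one type and more RNA per cell cannot be told apart. The slide numbers formed 3 separate ranges, for EBs, for E15.5 pancreas, and for the βTC6 line together with islets, so slide and tissue cannot be told apart except between Dox(+) and Dox(−) EBs and between βTC6 cells and islets.

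The labels of the EB arrays disagree about the induced gene. The source field names Pdx1-IRES-Ngn3, as the study does, while the description and tissue fields name activated Notch4, a receptor form that switches on Notch targets without ligand. The study lists these arrays as its own and reports values of its Pdx1 and Ngn3 EBs at day 13. For Chga it gives 1.9 without Dox and 105.4 with Dox. The arrays here read 1.945 and 1.906 without Dox, and 105.4 on both with Dox. By the study's account the induced genes were therefore Pdx1 and Ngn3. It also stained Pdx1 and Ngn3 protein after Dox, in EBs of a later protocol. The array probes of the induced genes did not by themselves settle which label is right. The Notch4 probe read 0.877 on the 1 Dox(+) array that measured it, against 0.637 and 0.799 on the Dox(−) arrays (adjusted p = 0.399). Pdx1 was at background on all 4 EB arrays (adjusted p = 0.553), and Neurog3 differed by 0.03 ± 0.22 on the log2 scale (SE, adjusted p = 0.962). Whether these probes lie in the expressed cassettes is not given in the sources used here. Endocrine markers were higher in Dox(+) EBs for 11 of 11 tested genes, where 20.7% of all probes were higher. Their link to the cassette was not tested.

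The members were compared first between Dox(+) and Dox(−) EBs, which asks what changed with induction. The 3 Hey genes, Mfng, Nrarp, Dtx1 and Hes6 were upregulated in Dox(+) EBs, and no member was downregulated. The largest fold change was that of Dtx1, followed by Hey1, Mfng, Hey2, Heyl, Nrarp and Hes6. The Dtx1 fold rests on 1 usable Dox(−) array, at background. The Hes6 call lay close to the threshold (limma adjusted p = 0.0476) and was often lost in the alternative settings given below. Of the 9 tested members 7 were higher, where 20.7% of all tested probes were higher, and 0 were lower, where 22.5% of all probes were lower. The median log2 difference was 0.98 over the tested members and −0.03 over all probes.

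**Figure D1:**
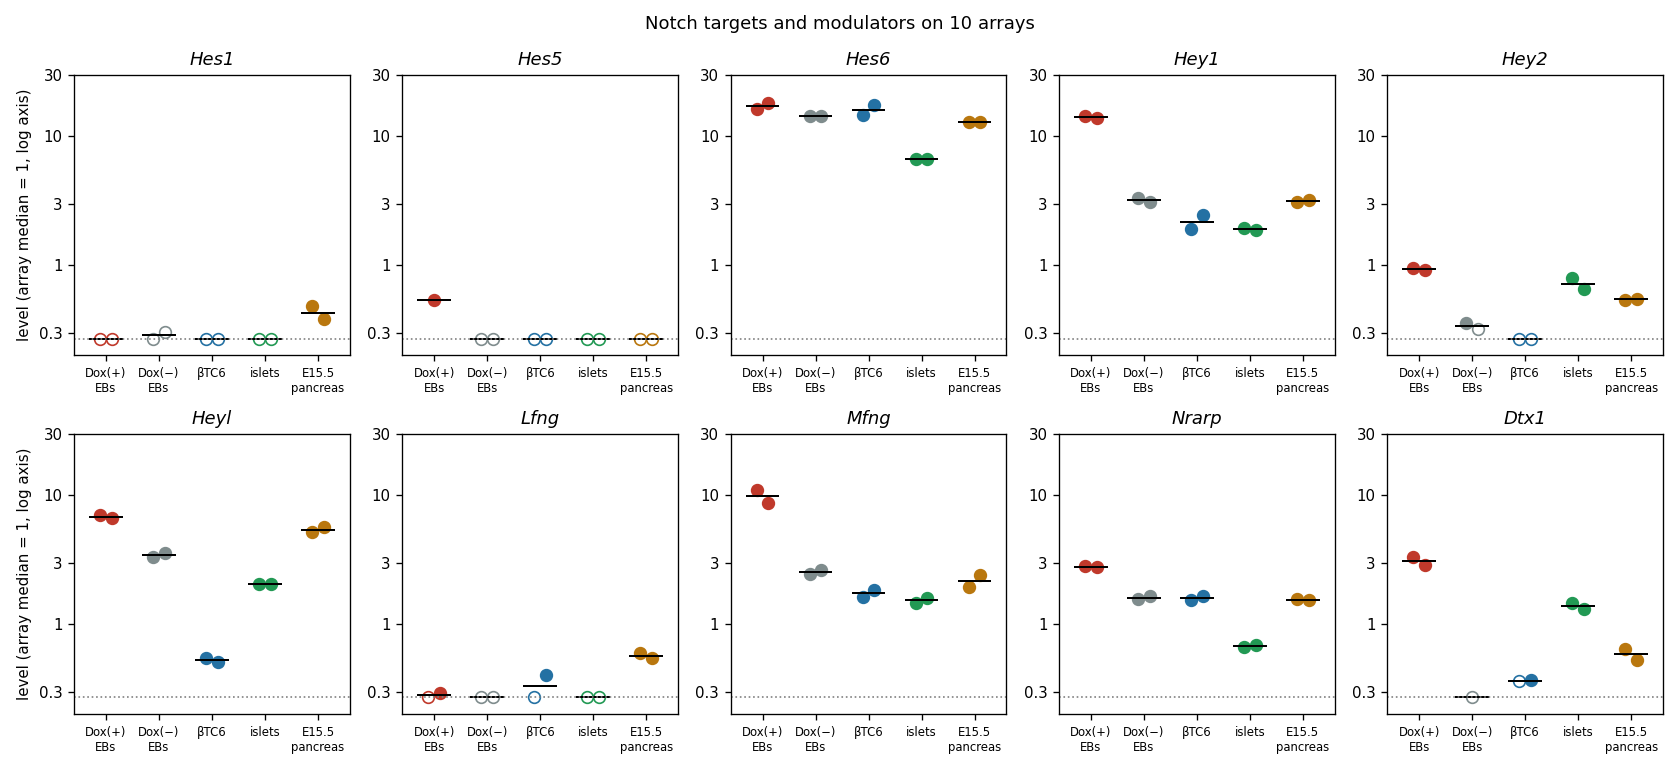
Level of each of the 10 members on every array (array median = 1, log axis), with Dox(+) and Dox(−) EBs on the left, then βTC6 cells, islets and E15.5 pancreas. Points are arrays, filled where above background and open where at background, bars are geometric means, the dotted line is the 0.27 floor, and masked spots are left out. Hey1 and Mfng stand high on the Dox(+) arrays, at 13.9 to 14.3 and 8.76 to 11.0, while Hes1 leaves background only in the E15.5 pancreas.

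Among the Hey genes, which encode bHLH repressors that bind DNA as dimers with each other or with Hes proteins, Hey1 set the Dox(+) EBs apart from all 4 other groups. Hey1 read 14.3 and 13.9 on the Dox(+) arrays, against 3.32 and 3.10 on the Dox(−) arrays, 1.91 and 2.43 on the βTC6 arrays, 1.95 and 1.86 on the islet arrays, and 3.10 and 3.23 on the E15.5 arrays. Both Dox(+) arrays lay far above all 8 others, and the other 8 spanned only 1.86 to 3.32. The difference from Dox(−) EBs was 2.14 ± 0.12 on the log2 scale (SE), or 4.39-fold (adjusted p = 2.56e-07). Hey1 in Dox(+) EBs also exceeded its βTC6 level 6.53-fold (adjusted p = 1.77e-08), its islet level 7.39-fold (adjusted p = 8.90e-09) and its E15.5 level 4.46-fold (adjusted p = 1.53e-07). Below the Dox(+) arrays, the levels of Dox(−) EBs and E15.5 pancreas overlapped, as did those of βTC6 cells and islets.

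Heyl, the third Hey gene, had a graded order over the groups in which no neighbours overlapped. It read 7.01 and 6.62 on the Dox(+) arrays, against 3.33 and 3.57 on the Dox(−) arrays, 0.546 and 0.504 on the βTC6 arrays, 2.03 and 2.04 on the islet arrays, and 5.13 and 5.67 on the E15.5 arrays. Dox(+) EBs and E15.5 pancreas were at the top and βTC6 cells were at the bottom. The difference from Dox(−) EBs was 0.98 ± 0.11 (log2, SE), or 1.98-fold (adjusted p = 3.66e-05), and that from βTC6 cells was 3.70 ± 0.11, or 13.0-fold (adjusted p = 7.97e-10), the largest measured fold of a member in any of the 7 comparisons made. Its Dox(+) level was 3.34-fold the islet level (adjusted p = 1.56e-07). It was 1.26-fold higher than in E15.5 pancreas (adjusted p = 0.020), a call that was lost in 4 of 20 alternative settings (adjusted p 0.0108 to 0.135 over all of them), among them those without the first Dox(+) array (0.0985) and without the first E15.5 array (0.135).

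Hey2, which is known from the developing heart and arteries, was below the array median on every array. It read 0.957 and 0.919 on the Dox(+) arrays, against 0.356 and 0.323 on the Dox(−) arrays, 0.177 and 0.0144 on the βTC6 arrays, 0.790 and 0.659 on the islet arrays, and 0.541 and 0.546 on the E15.5 arrays. The second Dox(−) array and both βTC6 arrays were at background. Hey2 was 2.77-fold higher in Dox(+) than in Dox(−) EBs (log2 difference 1.47 ± 0.15, SE, adjusted p = 2.47e-05), at least 2.98-fold higher than in βTC6 cells (adjusted p = 2.14e-06) and 1.73-fold higher than in E15.5 pancreas (adjusted p = 1.17e-03). Against islets it was 1.30-fold higher (adjusted p = 0.0487). That call was lost in 10 of 19 alternative settings (adjusted p 0.0147 to 1), including those without either Dox(+) array, either E15.5 array or the second islet array.

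Of the 3 Hes members, Hes6 alone was above background on every array. It differs from its relatives in that it is known to oppose Hes1 and to favour neuronal differentiation. It read 16.3 and 18.3 on the Dox(+) arrays, against 14.3 and 14.3 on the Dox(−) arrays, 14.7 and 17.4 on the βTC6 arrays, 6.62 and 6.68 on the islet arrays, and 12.9 and 13.0 on the E15.5 arrays. Islets were the low group, and the Dox(+) and βTC6 arrays overlapped. The Dox(+) level was 1.21-fold that of Dox(−) EBs (log2 difference 0.28 ± 0.10, SE, adjusted p = 0.0476), and the call was lost in 12 of 20 alternative settings (adjusted p 0.0171 to 0.251). Those 12 included 7 of the 10 fits that left out 1 array, namely the second Dox(+) array and each of the Dox(−), islet and E15.5 arrays. The difference from islets was larger, at 2.60-fold (adjusted p = 5.62e-07), and that from E15.5 pancreas was 1.33-fold (adjusted p = 4.45e-03). Against βTC6 cells the log2 difference was 0.11 ± 0.10 (adjusted p = 0.370), though it became 0.49 and passed the test after quantile normalization (adjusted p = 0.00203, with a range of 0.000931 to 0.943 over the 20 settings).

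Hes1, the main Notch effector in pancreatic progenitors, was at background in every group but the embryonic pancreas. It read 0.120 and 0.137 on the Dox(+) arrays, against 0.199 and 0.305 on the Dox(−) arrays, 0.126 and 0.0018 on the βTC6 arrays, 0.226 and 0.203 on the islet arrays, and 0.481 and 0.385 on the E15.5 arrays. Of these, only the E15.5 values were above background. Between Dox(+) and Dox(−) EBs the log2 difference was −0.09 ± 0.15 (SE, adjusted p = 0.692), with both groups at background, so a change below that level was not detectable.

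Hes5, which is known from neural progenitors, gave a single reading above background. It read 0.538 on the first Dox(+) array, while the spot on the second was flagged as contaminated and was masked. The other 8 arrays, at 0.0475 to 0.253, were all at background. With 1 usable Dox(+) array Hes5 had no test.

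Of the Fringe genes, whose products extend the sugars on Notch receptors in the Golgi and so tune their response to each ligand, Mfng was upregulated and Lfng was not called. Mfng read 11.0 and 8.76 on the Dox(+) arrays, against 2.45 and 2.64 on the Dox(−) arrays, 1.63 and 1.85 on the βTC6 arrays, 1.47 and 1.59 on the islet arrays, and 1.95 and 2.41 on the E15.5 arrays. As with Hey1, both Dox(+) arrays were above all 8 others, which spanned 1.47 to 2.64. Mfng was 3.86-fold higher in Dox(+) than in Dox(−) EBs (log2 difference 1.95 ± 0.15, SE, adjusted p = 2.08e-06), 5.64-fold higher than in βTC6 cells (adjusted p = 1.30e-07), 6.41-fold higher than in islets (adjusted p = 6.09e-08) and 4.52-fold higher than in E15.5 pancreas (adjusted p = 5.26e-07).

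Lfng lay near background outside the embryonic pancreas. It read 0.249 and 0.291 on the Dox(+) arrays, against 0.150 and 0.180 on the Dox(−) arrays, 0.117 and 0.404 on the βTC6 arrays, 0.0988 and 0.0584 on the islet arrays, and 0.593 and 0.543 on the E15.5 arrays. Apart from the E15.5 arrays, only the second Dox(+) and the second βTC6 array were above background. The log2 difference between Dox(+) and Dox(−) EBs was 0.05 ± 0.18 (SE, adjusted p = 0.878). Against βTC6 cells no difference was called, but without the first βTC6 array Lfng was lower in Dox(+) EBs by 0.53 on the log2 scale (adjusted p = 0.0142).

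Nrarp and Dtx1 encode proteins that bind the ankyrin repeats of the Notch intracellular domain, Nrarp as a feedback inhibitor of the RBPJ complex and Dtx1 (Deltex) as a ubiquitin ligase. Nrarp read 2.81 and 2.77 on the Dox(+) arrays, against 1.57 and 1.64 on the Dox(−) arrays, 1.52 and 1.66 on the βTC6 arrays, 0.665 and 0.686 on the islet arrays, and 1.55 and 1.54 on the E15.5 arrays. Dox(+) EBs were at the top and islets at the bottom, and between them the βTC6 arrays overlapped with those of both Dox(−) EBs and E15.5 pancreas. Nrarp was 1.74-fold higher in Dox(+) than in Dox(−) EBs (log2 difference 0.80 ± 0.11, SE, adjusted p = 2.23e-04), 1.76-fold higher than in βTC6 cells (adjusted p = 9.20e-05), 4.13-fold higher than in islets (adjusted p = 6.16e-08) and 1.81-fold higher than in E15.5 pancreas (adjusted p = 7.92e-05).

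Dtx1 was the member with the widest gap between the EB groups. It read 3.34 and 2.88 on the Dox(+) arrays, against 0.246 on the 1 usable Dox(−) array, 0.363 and 0.367 on the βTC6 arrays, 1.45 and 1.30 on the islet arrays, and 0.641 and 0.530 on the E15.5 arrays. The usable Dox(−) array and the first βTC6 array were at background, and the other Dox(−) spot was masked, so the spread behind that comparison came from the other groups. Dtx1 was at least 11.2-fold higher in Dox(+) than in Dox(−) EBs (adjusted p = 5.21e-07), 8.51-fold higher than in βTC6 cells (adjusted p = 1.32e-07), 2.26-fold higher than in islets (adjusted p = 1.09e-04) and 5.32-fold higher than in E15.5 pancreas (adjusted p = 1.03e-06).

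**Figure D2:**
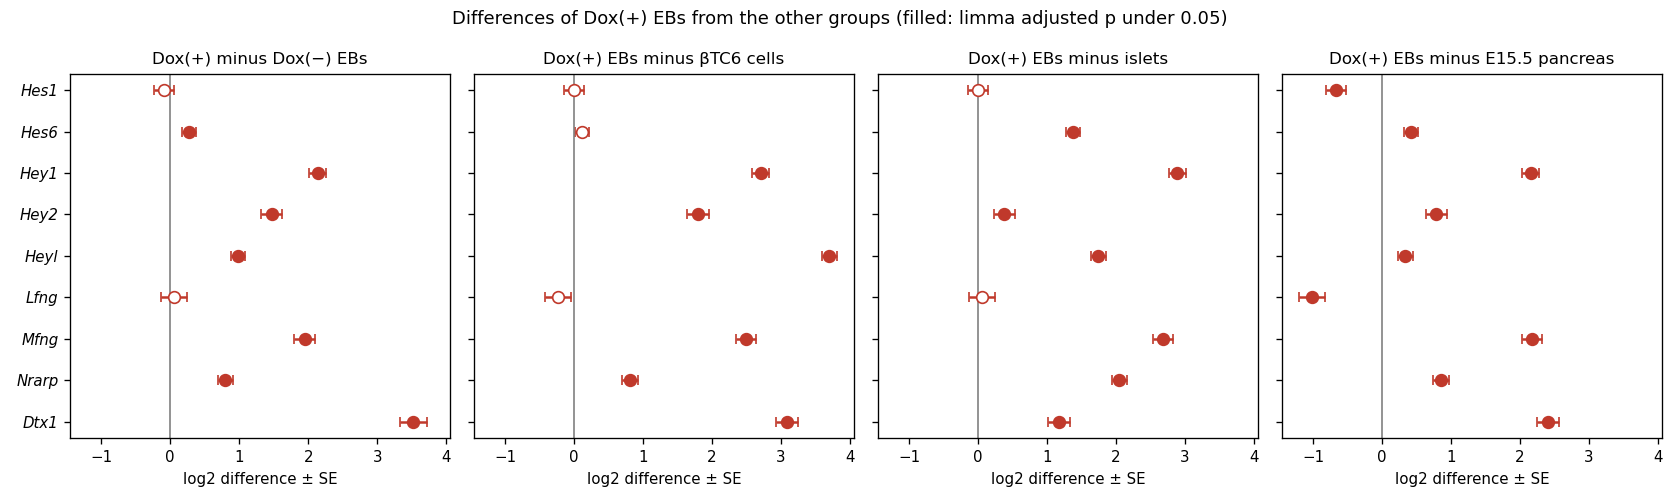
Log2 difference of Dox(+) EBs from Dox(−) EBs, from βTC6 cells, from islets and from E15.5 pancreas for the 9 tested members, with SE bars from the limma fit and filled points where the adjusted p was under 0.05. Hey1 and Mfng lie at about the same distance from 0 in all 4 panels (1.95 to 2.89), and Heyl ranges from 0.34 against E15.5 pancreas to 3.70 against βTC6 cells. The only filled points below 0 are those of Hes1 and Lfng against E15.5 pancreas, the group through which they entered the fit. The filter fixed those differences, so their fill is not a test result.

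Counted over the comparisons with the other sources, Dox(+) EBs had the higher level for most members. Against βTC6 cells 6 of the 9 tested members were higher (25.5% of all probes) and 0 were lower (37.5%). Against islets 7 were higher (36.4%) and 0 were lower (31.6%). Against E15.5 pancreas, leaving out Hes1 and Lfng, which the filter admitted through that group, 7 of 7 were higher (33.0%) and 0 were lower (26.9%). The median log2 difference was 1.80 against βTC6 cells and 1.38 against islets over the 9 members, and 0.85 against E15.5 pancreas over the 7, where the medians of all probes were −0.11, 0.05 and 0.07. These comparisons share the 2 Dox(+) arrays, so they are not independent of each other.

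Dox(−) EBs were set beside the embryonic pancreas to show where EBs stood without induction. Of the 7 members other than Hes1 and Lfng, 0 were higher in Dox(−) EBs (33.6% of all probes were), and 3, namely Hey2, Heyl and Dtx1, were lower (24.8%). Heyl was 1.56-fold lower in Dox(−) EBs (adjusted p = 4.72e-04) and Dtx1 at least 2.10-fold lower (adjusted p = 8.87e-04). For the remaining 4 members the log2 differences lay between 0.02 and 0.23, with SEs of 0.10 to 0.15. The Hey2 call was lost in 3 of 19 alternative settings (adjusted p 0.000949 to 1).

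βTC6 cells and islets, the tumour line and the primary tissue, differed in opposite directions among the members. Hes6 was 2.41-fold higher in βTC6 cells (adjusted p = 1.03e-06) and Nrarp 2.35-fold higher (adjusted p = 3.14e-06), so 2 members were higher, where 39.1% of all probes were. Heyl was 3.88-fold lower in βTC6 cells (adjusted p = 6.51e-08), Dtx1 3.76-fold lower (adjusted p = 3.26e-06) and Hey2 at least 2.30-fold lower (adjusted p = 1.17e-05), so 3 members were lower, where 27.0% of all probes were. Hey1 and Mfng, with log2 differences of 0.18 ± 0.12 and 0.18 ± 0.15 (SE), were not called, but without the first βTC6 array Hey1 was higher in βTC6 cells by 0.35 (adjusted p = 0.0167, with a range of 0.0167 to 1 over 20 settings). The same omission gave a call for Lfng, higher in βTC6 cells by 0.58 (adjusted p = 0.00811).

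Between islets and E15.5 pancreas, all 7 members other than Hes1 and Lfng were called. In islets 5 were lower (32.5% of all probes) and 2, Dtx1 and Hey2, were higher (32.4%). The largest measured falls in islets were those of Heyl, by 1.41 ± 0.11 on the log2 scale or 2.65-fold (adjusted p = 8.77e-07), and Nrarp, by 1.19 ± 0.11 or 2.29-fold (adjusted p = 4.44e-06). Dtx1 was 2.35-fold higher in islets (adjusted p = 8.17e-05). Hey2 was 1.33-fold higher (adjusted p = 0.0365), and that call was lost in 6 of 19 alternative settings (adjusted p 0.0105 to 1), among them those without either E15.5 array or the first islet array. Mfng was 1.42-fold lower in islets (adjusted p = 0.0115), a call lost without the second E15.5 array (0.113) and without the first islet array (0.0734).

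The members thus had several patterns across the groups. To find the genes most like each one, group means of the log2 levels were centred on the gene's own mean over the 5 groups, and the root mean square difference was taken over the 5 groups for the 18405 tested probes of 15710 genes. By this measure Mfng was the gene nearest to Hey1 and Hey1 the gene nearest to Mfng, with a root mean square difference of 0.10 on the log2 scale, against variations of 1.03 and 0.96 of the genes around their own means. Next to Hey1 came Megf10 at 0.20 and Creb5 at 0.20, and next to Mfng came Ntng1 at 0.16 and Zfp60 at 0.18. The genes nearest to Heyl were Gm17396 at 0.17, the endothelial adhesion gene Icam2 at 0.19 and Rasgrp3 at 0.19. Nrarp was nearest to Necab3 at 0.12, Bcl11a at 0.12 and Myo7b at 0.13, and Hes6 to Dusp10 at 0.06, Crim1 at 0.06 and Pwwp2a at 0.07. Hey2 was nearest to Inpp4a at 0.13, Tcea2 at 0.13 and Pnck at 0.16. Dtx1 had no close match, with the noncoding RNA gene Meg3 nearest at 0.26, followed by Vstm2a at 0.38 and Tox at 0.45. For Hes1 and Lfng, most of whose group means were at or near the floor, the nearest genes were Vgll3, Wdfy4 and Rtl3, and Pikfyve, Gm5376 and Fam53a.

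**Figure D3:**
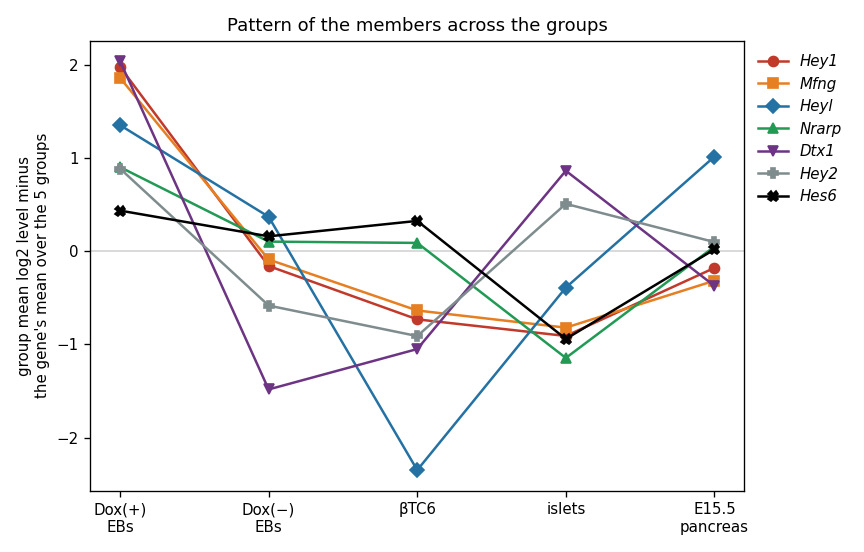
Group mean log2 level of 7 members minus the gene's own mean over the 5 groups, with Dox(+) and Dox(−) EBs on the left, then βTC6 cells, islets and E15.5 pancreas. The lines of Hey1 and Mfng nearly coincide (root mean square difference 0.10), Heyl has its low point in βTC6 cells, and Dtx1 and Hey2 have a second high point in islets.

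Promoters were examined because RBPJ, through which Notch acts, is known to bind the core GTGGGAA. The RefSeq table (GRCm38.p6) held the 250 bases before and 50 bases after the start site for 6 of the 10 members, namely Hes5, Hes6 (with 2 promoters), Hey2, Lfng, Nrarp and Dtx1. The core was searched on both strands and was found for 3 of the 6, where 7.24% of the 27025 genes in the table had it in at least 1 promoter. Hes5 and Hey2 each had 1 match on each strand and Lfng had 1 on the gene's strand. The stretches that hold them are shown 5′ to 3′ on the strand of the gene, with the core or its reverse complement in capitals. They lie at chr4:154960677-154960866 (plus strand) for Hes5, chr10:30842781-30843010 (minus strand) for Hey2 and chr5:140607212-140607258 (plus strand) for Lfng.
Hes5: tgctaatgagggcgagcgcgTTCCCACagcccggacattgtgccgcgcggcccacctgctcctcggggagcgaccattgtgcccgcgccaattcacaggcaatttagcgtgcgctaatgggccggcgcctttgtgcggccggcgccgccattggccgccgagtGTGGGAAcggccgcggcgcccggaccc
Hey2: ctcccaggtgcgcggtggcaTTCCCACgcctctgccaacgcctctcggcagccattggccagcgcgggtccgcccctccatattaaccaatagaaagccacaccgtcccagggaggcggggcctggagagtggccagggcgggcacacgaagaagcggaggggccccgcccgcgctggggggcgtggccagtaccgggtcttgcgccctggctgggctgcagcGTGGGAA
Lfng: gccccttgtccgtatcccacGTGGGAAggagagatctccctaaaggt

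The matches in Hes5 began 226 and 83 bases before the start site, those in Hey2 began 207 and 4 bases before it, and that in Lfng began 109 bases before it. For Hes5 and Dtx1 the start site used lies inside the annotated gene, which begins at chr4:154960626 for Hes5 and reaches chr5:120711867 for Dtx1. Their stretches shown here therefore lie within the gene and not before its outermost start. Of the 3 genes with a match, Hey2 was upregulated in Dox(+) EBs, Lfng was not called and Hes5 was not tested. Nrarp and Dtx1, which were upregulated, had no GTGGGAA in the window, nor had either promoter of Hes6. Their 80 bases before the start site are shown for comparison, at chr2:25180678-25180757 (plus strand) for Nrarp and chr5:120711670-120711749 (minus strand) for Dtx1.
Nrarp: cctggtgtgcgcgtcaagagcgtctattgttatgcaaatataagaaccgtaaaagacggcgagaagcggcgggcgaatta
Dtx1: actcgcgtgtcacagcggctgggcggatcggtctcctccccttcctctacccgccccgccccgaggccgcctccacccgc

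The N box CACNAG, to which Hes proteins are known to bind, was found on either strand for 4 of the 6 members (Hes6, Lfng, Nrarp and Dtx1), where 46.1% of all genes in the table had it. These matches describe letters in a window and not bound sites.

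The rest of the pathway was read in Dox(+) against Dox(−) EBs from lists of its genes, whose counts stand beside 20.7% of all probes higher and 22.5% lower. Of 11 Notch receptors and ligands with a probe, all tested, 5 were higher and 0 were lower in Dox(+) EBs, with a median log2 difference of 0.53 (1 was lower when either βTC6 array was left out). Dner, a neuronal transmembrane protein that can bind Notch, read 11.2 and 10.6 in Dox(+) EBs, against background on both Dox(−) arrays, and was at least 39.8-fold higher (adjusted p = 2.60e-10). The ligand Dll1, which endocrine progenitors display, read 1.26 and 1.10 against background on both Dox(−) arrays and was at least 3.81-fold higher (adjusted p = 2.11e-05). Jag2, another ligand, was 1.99-fold higher (adjusted p = 4.22e-05), and the receptor Notch1 was 1.67-fold higher (adjusted p = 3.61e-04), with levels of 11.8 and 10.7 on the Dox(+) arrays, against 6.26 and 7.19 on the Dox(−) arrays.

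Of 29 tested genes of Notch signal transduction, 12 were higher and 4 were lower, with a median log2 difference of 0.22. Both counts fell by over 1.5 times in some of the fits that left out 1 EB array, so they are not firm. That step leaves 1 array in a group. It changed the counts over all probes by less than 1.5 times. Fbxw7, the ubiquitin ligase subunit that marks the Notch intracellular domain for destruction, was 2.11-fold higher in Dox(+) EBs (adjusted p = 1.95e-03). The corepressor Tle4 was 1.68-fold higher (adjusted p = 2.26e-04) and the γ-secretase subunit Ncstn 1.67-fold higher (adjusted p = 4.26e-03). The protease Adam17 was 1.55-fold lower (adjusted p = 0.0171).

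Among 9 tested genes for other Hes proteins and bHLH antagonists, 3 were higher and 3 were lower, shares not far from those of all probes (20.7% and 22.5%), with 1 higher when the first Dox(+) or the first Dox(−) array was left out. Id4, an inhibitor of bHLH dimers, was at least 9.97-fold higher in Dox(+) EBs, at 2.75 and 2.72 against background on both Dox(−) arrays (adjusted p = 2.68e-07), whereas its relative Id2 was 2.59-fold lower (adjusted p = 8.02e-05). The bHLH repressors Bhlhe40 and Bhlhe41 went in opposite directions, with Bhlhe40 2.60-fold lower (adjusted p = 3.37e-03) and Bhlhe41 1.53-fold higher (adjusted p = 0.0117). Of 6 tested proneural bHLH factors, the class that Hes and Hey proteins repress, 4 were higher and 0 were lower. Neurod1, which acts after Neurog3 in endocrine cells and in neurons, read 32.1 and 29.1 on the Dox(+) arrays, against 0.590 and 0.646 on the Dox(−) arrays, a 49.5-fold difference (adjusted p = 9.35e-11). Nhlh2 was at least 44.2-fold higher (adjusted p = 2.10e-08), Nhlh1 5.48-fold higher (adjusted p = 1.82e-06) and Neurod2 at least 1.33-fold higher (adjusted p = 0.0281).

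**Figure D4:**
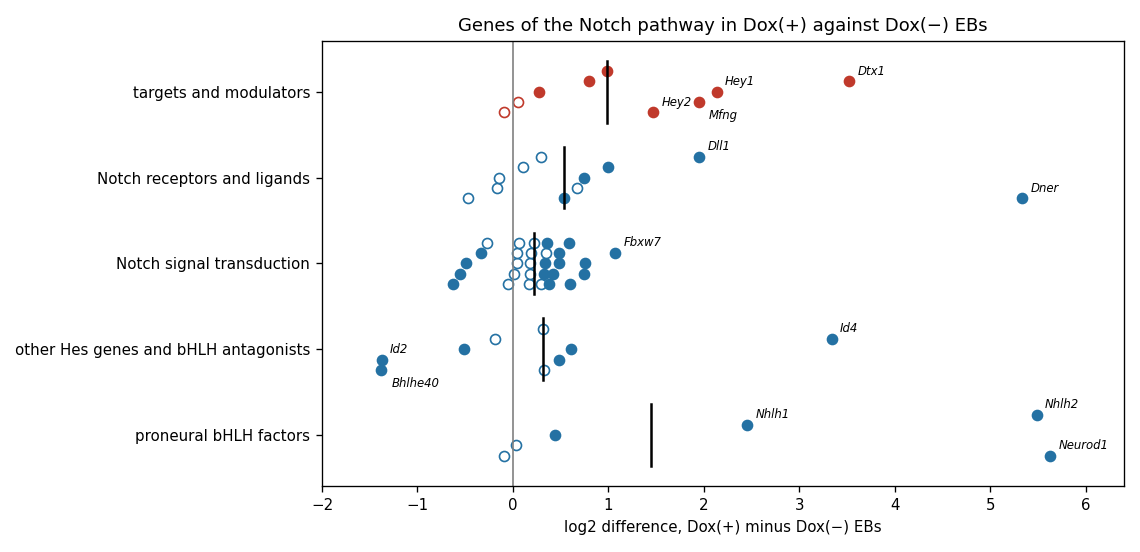
Log2 difference of Dox(+) minus Dox(−) EBs for each tested gene of the member list and of 4 other lists of the pathway. Points are genes, filled where the limma adjusted p was under 0.05, black lines are list medians, vertical offsets only separate points, and genes beyond 1 in either direction are named. The proneural factors have the highest median, at 1.445, and the members and the receptors and ligands have medians of 0.98 and 0.53. The other Hes genes and bHLH antagonists have a median of 0.31, and signal transduction genes crowd near 0 with a median of 0.22.

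Markers of whole cell types also moved between the EB groups, and their part in the members' differences was not tested. The counts again stand beside 20.7% of all probes higher and 22.5% lower. Sums cover only markers with no masked spot on any of the 10 arrays. That leaves 9 of 11 neuronal, 10 of 11 endocrine, 7 of 8 heart, 7 of 8 neural progenitor and 4 of 5 blood markers, and all those of the other lists. Of the tested neuronal markers 10 of 11 were higher in Dox(+) EBs, with summed levels of 152 to 167, against 4.12 to 4.16 in Dox(−) EBs. In Dox(−) EBs 8 of the 11 (among them Dcx, Elavl3 and Map2) were at background. The neuronal sums were 249 to 277 in βTC6 cells, 65.9 to 66.9 in islets and 20.3 to 21.3 in E15.5 pancreas. A high neuronal sum was thus not particular to Dox(+) EBs. All 11 endocrine markers were higher, with sums of 452 to 528 against 7.00 to 7.02. Mural and mesenchyme markers were lower for 8 of 12 and higher for 2, with sums of 249 to 259 in Dox(+) EBs against 717 to 778 in Dox(−) EBs, where the Col3a1 probe was saturated. Heart markers were lower for 6 of 7 and higher for 1, with sums of 20.5 to 20.8 against 140 to 195. Among those lower, Myh7 passed the filter only through Dox(−) EBs, so its difference was fixed by the filter. Blood markers were lower for 4 of 5 (1.95 to 2.10 against 99.3 to 111), and duct and progenitor epithelium markers were lower for 3 of 6 (44.8 to 45.8 against 134 to 137). Neural progenitor markers were split, with 3 higher and 3 lower of 8 and sums of 120 to 123 against 159 to 164. Among those higher, Sox3 passed the filter only through Dox(+) EBs, so its difference was likewise fixed. Most of the neural progenitor sum was Vim, at 92.9 and 91.5 against 141 and 134, so that sum mainly follows 1 gene. Likewise the Dox(−) sums were mostly Pf4 for blood, Krt19 and Krt7 for duct, and Myl7 and Actc1 for heart. Acinar markers were higher for 4 of 6 with sums of 20.4 to 24.9 against 3.53 to 3.64.

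Endothelial markers are of interest beside the Hey genes, which vessels express. Their summed level was 106 to 112 on the Dox(+) arrays, against 101 to 105 on the Dox(−) arrays, but single markers differed. In Dox(+) EBs 4 of 11 were higher, namely Emcn 2.83-fold, Sox17 2.13-fold, Pecam1 2.04-fold and Cdh5, at background in Dox(−) EBs, at least 2.22-fold, and Cldn5 was 1.53-fold lower. The βTC6 arrays had sums of 22.5 to 26.9, the islet arrays 85.2 to 89.5 and the E15.5 arrays 116 to 120, and in βTC6 cells 6 of the 11, including Pecam1, Cdh5 and Tie1, were at background on both arrays. Of the Hey genes, Heyl and Hey2 were lowest on the βTC6 arrays, while the βTC6 and islet levels of Hey1 overlapped. In the other groups, 11 of 11 endocrine markers were above background in βTC6 cells and in E15.5 pancreas and 10 of 11 in islets. Acinar markers were above background for 6 of 6 in both islets and E15.5 pancreas, and several endocrine and acinar probes were saturated there, so their sums are not compared. The acinar gene Cel read 328 and 261 on the islet arrays, both saturated, against 114 and 114 on the E15.5 arrays. Cpa1, Cela1 and Amy2a5 were also saturated on both islet arrays, while Ptf1a and Bhlha15 were lower in islets than in E15.5 pancreas.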

How the data were processed

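Total RNA of 10 samples was hybridised to 1-colour CodeLink Mouse Whole Genome arrays with 34967 discovery probes and 1260 control spots. The deposited files hold intensity values that the authors obtained with CodeLink Expression Analysis 4.1.0.29054 as the spot mean minus the local background median, divided by the array median. Control spots were left out and contaminated, irregular or masked spots were set missing. Values under 0.27 were raised to 0.27 and log2 was taken with no further scaling. The 28259 probes for which some group had both arrays above background were fitted with limma 3.58.1 (R 4.3.3), with 1 mean per group over all 10 arrays, 5 residual degrees of freedom, trend and robust weights and Benjamini-Hochberg adjustment. Where a group was at background, folds are given as at least, against the higher of the lowest signal above background and the probe's own value. These are nominal bounds, since some spots at background read higher than that lowest signal. On the first Dox(−) array the lowest signal above background was 0.278, while Rbfox3 read 0.421 at background. Between 66.0% and 74.3% of probes per array were above background, and the 2 arrays per group limit the precision. Symbols came from the platform annotation, and 12671 probes had none. The members and lists were chosen with earlier results of these data known. The named genes are the members, Pdx1, Neurog3 and Notch4, up to 4 called genes of each pathway list with the largest EB difference, and the 3 nearest genes of each member. Alternatives changed the floor, filter, scaling, flags, fit and arrays used. The fit was tested on simulated data with normally distributed noise and no floor, so that test does not cover genes near the floor. Promoter sequences are RefSeq's, and protein sequences were not used here.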

Additional observations from a re-analysis of the deposited data

How the results depend on the processing

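Over 20 alternative settings, the values of single members in the 7 comparisons kept their direction and side of the threshold 1159 times, lost the call 53 times, gained one 10 times and reversed 8 times. In Dox(+) against Dox(−) EBs the calls for Hey1, Heyl, Mfng and Nrarp held in 20 of 20 settings, those for Dtx1 in 18 of 18, and that for Hey2 in 18 of 19, the exception being a floor of 1 (log2 difference 0), which lies above its values. The counts over the alternative settings include Hes1 and Lfng against E15.5 pancreas. The filter fixed those differences, so the counts say nothing about how firm they are. The cause of the changes below was not tested unless stated.

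Counted here over all 9 tested members, with Hes1 and Lfng, the number lower in Dox(+) EBs than in E15.5 pancreas was 2, and was 1 at a floor of 0.1, 0 at a floor of 1 and 0 among probes above background on all arrays, where Hes1 and Lfng are not tested. In Dox(−) EBs against E15.5 pancreas, 0 members were higher, with 1 (Hes6) when only the 4 arrays of these groups were fitted, and 5 were lower, with 3 at a floor of 0.1, 1 at a floor of 1, 3 after normexp with quantile normalization and 1 with probes above background on all arrays. In βTC6 cells against islets 3 were lower, with 1 under that filter. In islets against E15.5 pancreas 2 were higher, with 1 at a floor of 0.1, 1 at a floor of 1, 1 after normexp and 0 under the filter. Leaving out 1 array moved 3 counts by over 1.5 times: members higher in βTC6 cells than in islets (2 to 4), members higher in islets than in E15.5 pancreas (1 to 2), and members with a Dox(+) level under that of βTC6 cells (0 to 1). Smaller shifts were 5 to 7 members higher in Dox(+) than in Dox(−) EBs, 6 to 7 higher than in islets and 6 to 7 higher than in E15.5 pancreas, 4 to 5 lower in Dox(−) EBs than in E15.5 pancreas, and 6 to 7 lower in islets than in E15.5 pancreas.

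The reversed values were all uncalled. The log2 difference of Dox(+) EBs from βTC6 cells for Lfng became 0.310 at a floor of 0.1 and 0.059 after normexp, and over fits without 1 array it ranged from −0.527 to 0.054, while that of Hes6 ranged from −0.014 to 0.235. The difference of Dox(−) EBs from E15.5 pancreas became −0.004 (normexp) and −0.005 (quantile) for Hes6, and ranged from −0.028 to 0.068 for Hey1 over fits without 1 array.

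Replicates with the same number did not deviate together (correlations of −0.0687 to 0.0628 over the 10 pairs of groups), so the numbers were not taken as pairs. A fit with the replicate block changed 1 call, that of Hey2 in Dox(+) EBs against islets (adjusted p = 0.0528), which left 6 members higher there in place of 7. Another probe per member could not be tried, since each had 1. Quantile normalization moved the median of all probes from −0.11 to 0.00 in Dox(+) EBs against βTC6 cells and from 0.12 to 0.00 in βTC6 cells against islets. Hes5 entered a fit only without the background filter, from 1 Dox(+) array. Signal over background limits Hes1, Hes5, Lfng and Hey2, whose levels lay near the background of these arrays.

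Over all probes, counts of calls moved by over 1.5 times only with probes above background on all arrays, in 5 cases. With that filter 4571 probes were higher in Dox(+) EBs relative to βTC6 cells (7172 without it), 5828 were lower relative to islets (8898) and 4940 relative to E15.5 pancreas (7576). For Dox(−) EBs against E15.5 pancreas it left 4326 lower (6988), and for βTC6 cells against islets 4767 lower (7616). Fewer probes were tested under it. Of the pathway lists in Dox(+) against Dox(−) EBs, the filter left 3 receptors and ligands higher in place of 5, 1 bHLH antagonist in place of 3 and 2 proneural factors in place of 4, and a floor of 1 left 7 signal transduction genes higher in place of 12 and 1 lower in place of 4.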
